A study of Mus musculus with 3 samples.

Results

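The chemokine genes Ccl3, Ccl4, Ccl5 and Xcl1 and the cytokine gene Ifng were followed in thymocytes. They were chosen by name, with earlier results of these data known, and are 5 of the 27734 genes listed in all 3 runs. CCL3, CCL4 and CCL5 are secreted proteins that draw leukocytes to sites of inflammation. XCL1 acts through XCR1, which is carried by cross-presenting dendritic cells, in the thymus as elsewhere. IFNγ, the product of Ifng, acts through the paired receptor chains IFNGR1 and IFNGR2 and is made by natural killer (NK) cells, by innate-like T cells and by activated T cells, the same cells that release these chemokines.

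The cells were thymocytes of untreated C57BL/6 mice aged 6 weeks, and 4 thymi were pooled for each of 3 libraries (10x single-cell RNA-seq). Run 1 was a sort of all double-negative (DN, CD4-CD8-) cells together with TCRγδ+ cells. Run 2 was limited to the DN1 and DN2 stages, and TCRγδ+ cells were left out. Run 3 was a blend of 3 separate sorts, 1 of early DN stages (DN1 and DN2), 1 of DN3 cells and 1 of TCRγδ+ cells. All sorts left out cells positive for B220, CD11b, CD11c, NK1.1 or TCRβ. Each sort was made once, so the runs are not replicates of each other, and differences between runs carry no test.

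Limits of 500 to 5000 genes and 7% mitochondrial counts left 5516 cells in run 1, 8852 in run 2 and 7511 in run 3, with a median of 5989.5, 4844 and 8507 unique molecular identifiers (UMIs) per cell. Runs 1 and 2 shared 72 cell barcodes, runs 1 and 3 shared 3, and runs 2 and 3 shared 0. Doublets were not removed.

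Cells were gated by transcripts. A cell was in the Klrk1 gate with at least 1 UMI of Klrk1, which encodes the activating receptor NKG2D of NK cells and NK-like T cells, and was assigned to Trac (constant region of TCRα) or Trdc (constant region of TCRδ) when it had a UMI of that gene and none of the other. The Klrk1 gate held 20 cells in run 1, 1526 in run 2 and 936 in run 3. Among these, 1, 1098 and 600 cells were Trac cells and 11, 154 and 121 were Trdc cells. Without Klrk1 there were 97, 1283 and 705 Trac cells and 3663, 4472 and 3936 Trdc cells. Trdc is a loose gate. A Trdc UMI was found in 70.8%, 71.1% and 66.0% of the cells with both Ptcra and Rag1 (DN3-type cells) and in 25.4% of the 485 cells with both Cd79a and Cd79b (B cell type) of run 3, so a Trdc UMI alone does not make a γδ T cell. A Trac UMI was found in 11.4%, 10.997% and 4.66% of the DN3-type cells. A Klrk1 UMI was found in 0.723%, 3.78% and 2.16% of the DN3-type cells and in 3.30% of the B cell type of run 3. With gates at 2 UMIs, 27 Trdc cells with Klrk1 were left in run 2 and 27 in run 3. Of the Trac cells with Klrk1, 739 and 432 were left. The part of stray Klrk1 UMIs in the Trdc cells with Klrk1 was not tested. All 5 genes of a T cell list (Cd3d, Cd3e, Cd3g, Trbc1 and Trbc2) were counted in the Klrk1 gate, and they summed to 5041 to 6415 CPM (counts per 1000000 UMIs of the cells in the gate) over the runs, against 6465 to 6850 CPM in other cells. None was higher in the gate by the edgeR test described below, and Trbc1 was lower (-0.64, adjusted p = 0.022).

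In GRCm38 (mm10), the genes of the CC chemokines lie on chromosome 11, with Ccl5 at chr11:83525778-83530518 on the minus strand, Ccl3 at chr11:83647844-83649355 on the minus strand and Ccl4 at chr11:83662584-83664683 on the plus strand. Ccl3 and Ccl4 are neighbours that point away from each other with 13228 bases between them, while 117325 bases separate Ccl5 from Ccl3. Xcl1 is at chr1:164931644-164935527 on the minus strand and overlaps Gm20743 on the plus strand. Ifng is at chr10:118441046-118445892 on the plus strand and overlaps Gm49751 on the same strand.

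The 120 bases upstream of the RefSeq start (GRCm38.p6) are shown for the 3 genes with an entry in the promoter table, because those of Ccl3 and Ifng hold the TATA-box letters TATAA and that of Xcl1 does not hold these exact letters. Capitals mark TATAA, each line reads 5′ to 3′ on the strand of the gene, and the windows are chr1:164935523-164935642, chr11:83649379-83649498 and chr10:118440926-118441045.
Xcl1: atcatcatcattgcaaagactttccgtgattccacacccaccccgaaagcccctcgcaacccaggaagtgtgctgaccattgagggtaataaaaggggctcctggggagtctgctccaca
Ccl3: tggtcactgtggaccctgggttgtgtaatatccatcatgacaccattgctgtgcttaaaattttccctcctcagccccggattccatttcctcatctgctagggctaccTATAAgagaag
Ifng: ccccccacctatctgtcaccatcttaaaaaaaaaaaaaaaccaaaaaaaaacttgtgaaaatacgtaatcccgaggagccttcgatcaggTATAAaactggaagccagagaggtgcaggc

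TATAA began 11 bases upstream of the RefSeq start of Ccl3 and 30 bases upstream of that of Ifng. Ccl3 held the letters once more on the opposite strand, 162 bases upstream and outside the stretch shown. The GENCODE start of Ccl3, at 83649355, lies downstream of its RefSeq start, so both Ccl3 distances depend on the annotation used. Read on both strands over 250 bases upstream, TATAA was found in 22.8% of 32851 promoters. In the same window the T-box letters TCACACC (3.33% of promoters) occurred in Xcl1, and the NFAT core GGAAAA (20.4%) occurred in Ccl3. The AP-1 letters TGACTCA were in none of the 3 windows, against 4.46% of promoters. A match or its absence describes these letters only.

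Ccl5 was the member with the largest ratio of the Klrk1 gate to other cells in each run. In the Klrk1 gate it was at 1816 CPM in run 1 (exact Poisson 95% interval 1590 to 2065, from 233 UMIs in 20 cells), 1124 CPM in run 2 (1097 to 1151) and 930.3 CPM in run 3 (908 to 953). Cells without Klrk1 had 2.27, 63.8 and 31.9 CPM. The Klrk1 gate was higher in all 3 runs, and no interval came near that of the other cells. Intervals here and below cover counting error only.

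By receptor gate, Ccl5 was at 1602 CPM in run 2 and 822 CPM in run 3 in Trac cells with Klrk1, against 162 and 819 CPM in Trdc cells with Klrk1. Thus, the Trdc cells were 9.90-fold lower than the Trac cells in run 2 (95% interval of the ratio 8.48 to 11.6) and not distinguishable from them in run 3, where the ratio was 1.004 (0.935 to 1.08). Without Klrk1, Ccl5 was at 12.1, 299 and 101 CPM in Trac cells and at 1.10, 20.5 and 13.4 CPM in Trdc cells. The lowest of these gates in each run was Trdc without Klrk1.

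Xcl1 followed Trac more than Klrk1 in run 2, and followed both in run 3. It was at 488 CPM in run 2 (464 to 512) and 438 CPM in run 3 (418 to 459) in Trac cells with Klrk1, and at 225 and 174 CPM in Trac cells without Klrk1. In Trdc cells it was at 33.5 and 168 CPM with Klrk1, and at 4.61 and 2.94 CPM without. The gap between Trac and Trdc cells outside the Klrk1 gate was 48.7-fold in run 2 (40.9 to 58.3) and 59.3-fold in run 3 (49.6 to 71.3), whereas the gap between Trac cells with and without Klrk1 was 2.17-fold (2.01 to 2.35) and 2.51-fold (2.33 to 2.71). Among Klrk1 cells, the gap between Trac and Trdc cells was 14.5-fold in run 2 (10.4 to 21.1) and 2.61-fold in run 3 (2.26 to 3.03). The gap between Trdc cells with and without Klrk1 was 7.27-fold (4.85 to 10.6) and 57.0-fold (45.8 to 71.2). Run 1 did not show the gap between Trac and Trdc cells outside the Klrk1 gate: 3.64 CPM in Trac cells (3 UMIs) and 3.46 CPM in Trdc cells, with a ratio of 1.05 (0.213 to 3.17).

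Ifng was also highest in Trac cells with Klrk1 among the 4 gates of Klrk1 and receptor. Trac cells with Klrk1 had 135 CPM in run 2 (123 to 148) and 204 CPM in run 3 (191 to 219), and Trac cells without Klrk1 had 54.0 and 56.5 CPM. Trdc cells had 13.8 and 42.9 CPM with Klrk1, and 7.02 and 9.83 CPM without. The order of the 4 gates was the same in both runs, but in run 2 the 2 Trdc gates had overlapping intervals (7.55 to 23.2 and 6.12 to 8.01), as did Trac cells without and Trdc cells with Klrk1 in run 3 (50.8 to 62.6 and 32.2 to 56.0). In run 1, only 4 UMIs of Ifng were counted in 5516 cells, and the 97 Trac cells without Klrk1 had 0 UMIs, which allows up to 3.64 CPM at 3 counts.

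Ccl3 and Ccl4 were distributed differently. Ccl3 was at 11.9 and 13.9 CPM in Trac cells with Klrk1 in runs 2 and 3, and at 11.1 and 19.0 CPM in Trac cells without Klrk1. The ratios of CPM were 1.07 (0.695 to 1.65) and 0.732 (0.522 to 1.01). One cell held 98 of the 121 UMIs behind the 19.0 CPM. Trdc cells with Klrk1 had 4.93 CPM (5 UMIs) in run 2 and 57.2 CPM (44.8 to 72.1) in run 3.

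Ccl4 was at 33.9 and 44.2 CPM in Trac cells with Klrk1 and at 19.7 and 90.6 CPM in Trdc cells with Klrk1. Without Klrk1 it was at 24.4 and 47.7 CPM in Trac cells and at 30.4 and 21.4 CPM in Trdc cells. No gate was the highest in both runs. Cells with none of the 3 gate genes held 31.4 CPM in run 2 and 54.9 CPM in run 3, levels as high as those of most gates, and the same cells of run 3 held 33.6 CPM of Ccl3.

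**Figure D1:**
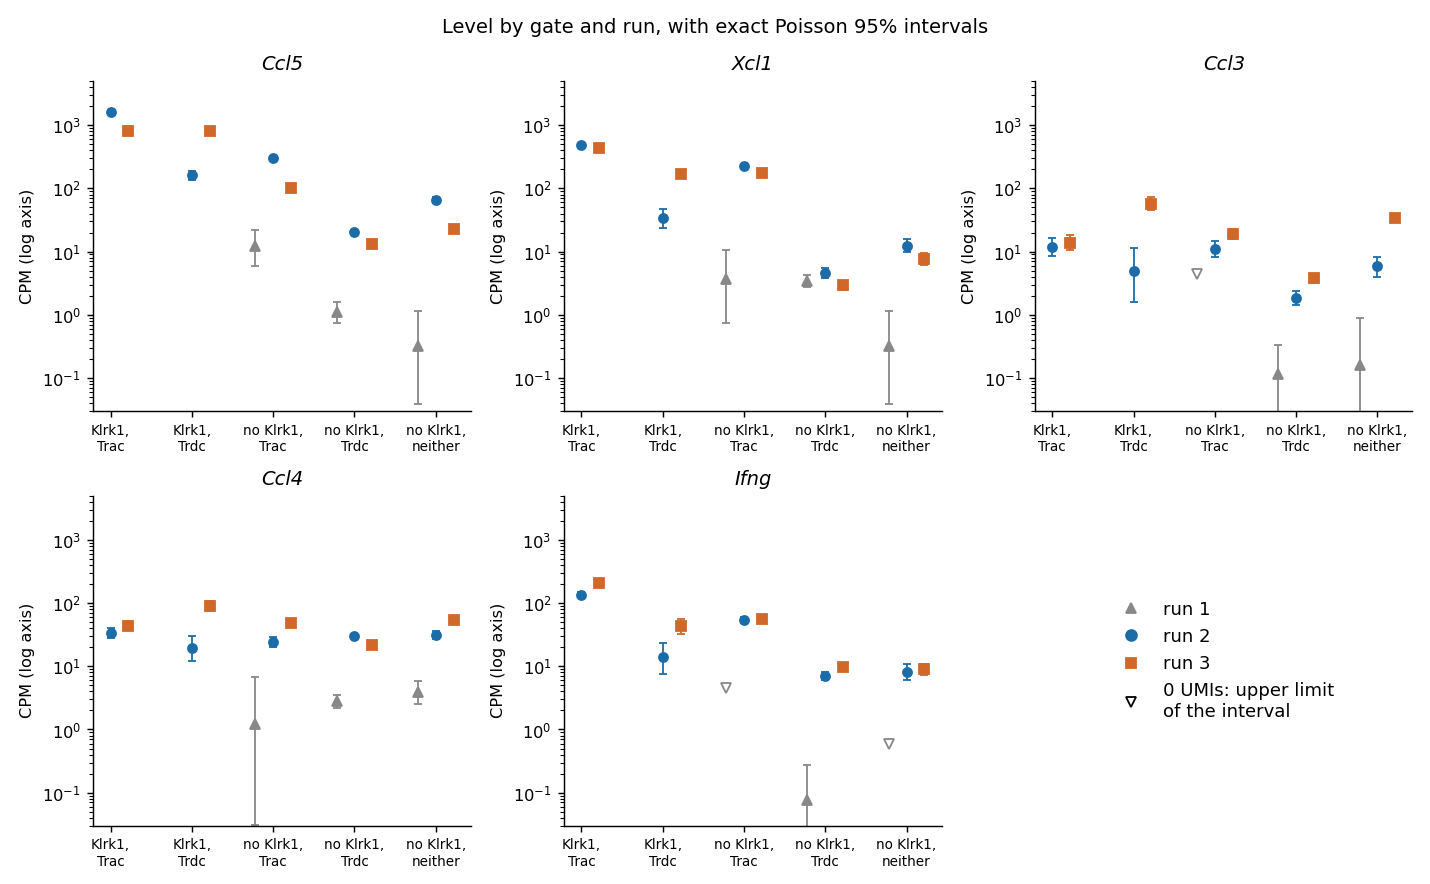
Level of each gene in CPM (log axis) in cells grouped by Klrk1 and by Trac or Trdc, 1 point per run with its exact Poisson 95% interval. Classes under 20 cells are not drawn, open triangles stand at the upper limit where 0 UMIs were counted, and intervals that reach below the axis are cut off. Xcl1 and Ifng in runs 2 and 3 and Ccl5 in run 2 were highest in Trac cells with Klrk1 among the classes drawn. Ccl5 in run 3 was level between the 2 Klrk1 classes. In the classes drawn, Ccl4 lay between 19.7 and 90.6 CPM in runs 2 and 3. In run 1 it lay between 1.21 and 3.95 CPM.

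The share of all UMIs that came from the Klrk1 gate set the same genes apart in runs 2 and 3. This gate held 17.2% of the cells in run 2 and 12.5% in run 3. It held 69.8% and 74.2% of the Ccl5 UMIs, 54.3% and 62.4% of the Xcl1 UMIs and 49.2% and 53.4% of the Ifng UMIs. For Ccl3 it held 31.6% and 24.0%, and for Ccl4 13.2% and 18.8%, so that most Ccl4 UMIs lay outside the gate. In run 1, the gate was 0.363% of the cells and held 72.1% of the Ccl5 UMIs but 12.9% of the Xcl1 UMIs. It held 25% of the 4 Ifng UMIs, 7.14% of the 14 Ccl3 UMIs and 0.610% of the 164 Ccl4 UMIs of that run.

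Few cells carried most of each transcript. In run 3, 72 of the 837 cells with a Ccl5 UMI held 50% of its UMIs, and the highest cell had 153. For Ccl4, 77 of 882 cells held 50%, and 62.6% of the cells with a UMI had only 1. For Xcl1, 169 of 1072 cells held 50%, and for Ifng 149 of 866. Ccl3 was the rarest, with 147 cells, of which 17 held 50%.

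To compare shares of cells at equal depth, each cell was thinned to 2000 UMIs, and the 48 kept cells under that depth, all in run 3, were left out. Median depth was 2694.5 UMIs in Trac cells with Klrk1 against 4844 over all cells of run 2, and 5773 against 8507 in run 3. After thinning, Xcl1 was the member found in the most Trac cells with Klrk1, 55.5% (exact Clopper-Pearson 95% interval 52.5 to 58.4) in run 2 and 50.7% (46.6 to 54.7) in run 3. The unthinned shares were 66.7% and 76.5%. Ccl5 was found in 35.8% and 30.2% after thinning and in 39.3% and 38.3% before it. For Ifng the thinned shares were 20.5% and 26.2%, and the unthinned shares 26.7% and 48.7%.

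Free RNA gives UMIs in cells that do not express a gene, and DN3-type cells without Klrk1 served as the comparison. Their thinned shares in runs 2 and 3 were 1.79% and 0.94% for Ccl5, 1.25% and 0.738% for Xcl1, 0.179% and 0.336% for Ccl3, and 0.536% and 1.54% for Ifng. Median depth of these cells was 5982 and 7908.5 UMIs. They are a comparison and not a pure background. In run 3, single DN3-type cells held up to 153 UMIs of Ccl5, 38 of Ccl4, 17 of Ccl3, 13 of Ifng and 12 of Xcl1. The 153 UMIs were also the highest Ccl5 count of the run. The source of these counts was not tested. The Trac shares of Ccl5, Xcl1 and Ifng lay far above these values with Klrk1 and also without it, at 13.4% and 7.23%, 29.2% and 22.4%, and 9.59% and 11.2%. In Trdc cells without Klrk1, in contrast, Xcl1 (1.07% and 0.664%) was no higher than in the comparison cells. Most DN3-type cells hold a Trdc UMI themselves, so the 2 sets overlap and their shares cannot tell expression from background.

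Ccl4 did not rise above the comparison cells in the same way. It was found in 4.01% and 4.0% of Trac cells with Klrk1, and in 2.14% (1.11 to 3.71) and 4.97% (3.92 to 6.20) of DN3-type cells. In run 3 the B cell type was lower, at 1.45% (0.586 to 2.97) of 482 cells, and its interval did not overlap that of the DN3-type cells. Ccl4 shares in Trdc cells without Klrk1 were 4.94% and 4.39%, and those in Trac cells without Klrk1 were 1.71% and 1.56%. The level in CPM gave the opposite order of the last 2 gates in run 3, where 1 Trac cell held 106 of 304 UMIs, so no order is read from these shares.

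**Figure D2:**
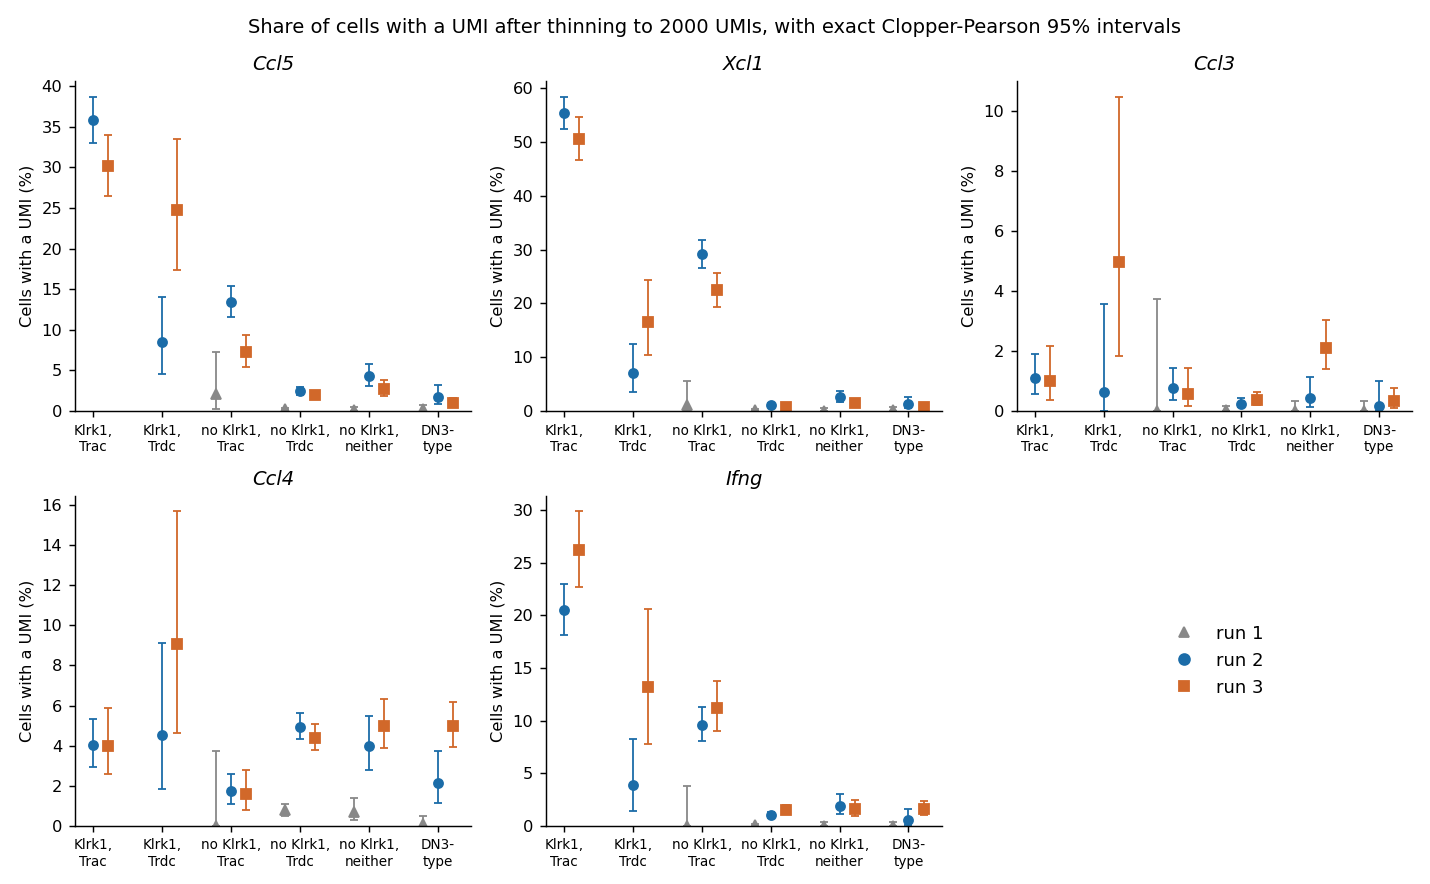
Share of cells (%) with at least 1 UMI of each gene after thinning to 2000 UMIs, by gate and run, with exact Clopper-Pearson 95% intervals. Each panel starts at 0 and has its own scale, and the DN3-type cells are the comparison cells. In Trac cells with Klrk1, Xcl1 reached 55.5% and 50.7% and Ccl5 35.8% and 30.2%, whereas Ccl4 was at 4.01% and 4.0%.

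The Klrk1 gate was tested against all other cells with UMI counts summed per run and gate. edgeR's quasi-likelihood test with the run as a block and Benjamini-Hochberg adjustment tested 12562 genes, of which 18.3% were higher and 22.1% lower in the Klrk1 gate at an adjusted p under 0.05. All 5 members were higher. The log2 differences were 5.76 ± 0.43 (SE) for Ccl5, 3.94 ± 0.19 for Xcl1 and 3.38 ± 0.14 for Ifng, with adjusted p-values of 2.2e-15, 9.3e-22 and 1.4e-24 in edgeR. Ccl3 differed by 1.89 ± 0.17 and Ccl4 by 0.90 ± 0.15, with adjusted p-values of 7.9e-13 and 4.8e-06 in edgeR. The median over the 5 members was 3.38, and that over all genes tested was -0.07. With 2 residual degrees of freedom, the errors of the Klrk1 comparison rest mainly on the trend over all genes.

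The size of the Ccl5 difference depended on the runs, at 4.63 without run 1 and 6.99 without run 2, and Xcl1 was at 4.58 without run 2. Within cells with a Trac UMI of runs 2 and 3, with or without Trdc, a set chosen after seeing the data, the Klrk1 cells were higher by 3.005 for Ccl5, 1.87 for Xcl1 and 2.29 for Ifng. Ccl3 was called there at 0.73 (adjusted p = 0.00069 in edgeR) and Ccl4 at 0.60 (adjusted p = 2.7e-06 in edgeR), whereas the intervals of both Ccl3 ratios within runs, given above for Trac cells without Trdc, included 1.

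Run 1 entered this test with 20 Klrk1 cells, in which Ccl3, Ccl4 and Ifng had 1 UMI each. Without run 3, Ccl4 differed by 0.42 (edgeR adjusted p = 0.42), and with DESeq2 its adjusted p was 0.053 at a log2 difference of 0.90. Within runs, the Ccl4 ratio of the gate to other cells was 1.16 (1.002 to 1.34) in run 2 and 2.36 (2.13 to 2.61) in run 3. Without the run as a block, none of the 5 passed (adjusted p from 0.29 to 0.71 in edgeR).

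Among Klrk1 cells, Trdc was compared with Trac in runs 2 and 3, the only ones with at least 20 cells of each. edgeR called 18.2% of 9535 genes higher and 16.9% lower in Trdc cells. Xcl1, at -2.62 ± 0.23, and Ifng, at -2.82 ± 0.20, were lower, with adjusted p-values of 2.1e-16 and 3.3e-21 in edgeR, and both were lower in each run. With DESeq2, Xcl1 did not pass (-2.88, adjusted p = 0.055). Ccl5 was lower by the same test at -1.81 ± 0.29 (adjusted p = 1.7e-07), although only run 2 showed it, and it did not pass with DESeq2 (adjusted p = 0.45) or with gates at 2 UMIs (-0.21, adjusted p = 0.67 in edgeR). Ccl3 was called higher at 0.91 ± 0.34 (adjusted p = 0.030 in edgeR), yet its ratio of Trac to Trdc was 2.41 (0.953 to 7.84) in run 2 and 0.243 (0.168 to 0.350) in run 3, opposite directions. Ccl4 differed by 0.21 ± 0.22 (adjusted p = 0.51 in edgeR), and it too went in opposite directions in the 2 runs. With gates at 2 UMIs, which left 27 Trdc cells in run 2 and 27 in run 3, both were called higher in Trdc cells. Ccl3 was then at 2.36 (adjusted p = 2.0e-06 in edgeR) and Ccl4 at 1.36 (adjusted p = 0.00044 in edgeR). Markers of other cells moved with this comparison. The DN3 genes Ptcra (2.17), Rag1 (1.82) and Notch3 (2.89), the mast cell and progenitor gene Cpa3 (3.94) and the myeloid gene Lyz2 (3.12) were all higher in the Trdc cells in edgeR. The 3 DN3 genes summed to 93.7 and 121 CPM in Trdc cells and to 11.3 and 29.1 CPM in Trac cells of runs 2 and 3, and all 3 were counted in each. Of 5 mast cell or basophil genes only Cpa3 was counted, at 250 and 169 CPM in Trdc cells and 14.3 and 8.84 CPM in Trac cells. The 8 myeloid or dendritic genes summed to 31.6 and 53.2 CPM (2 and 6 genes counted) against 10.7 and 10.4 CPM (8 and 6 genes), and the 8 NK or ILC1 genes to 119 and 819 CPM against 1133 and 874 CPM. Of 9 cytotoxic genes, 8 were lower in Trdc cells in edgeR, from Gzmb at -4.72 to Prf1 at -0.96, with a list median of -2.72. Gzma did not pass (-0.41). Of the 7 NK or ILC1 genes tested, 3 were lower, from Klrb1c at -3.09 to Fcer1g at -1.83, and Ncr1 (2.02) and Tyrobp (1.22) were higher. The part of these markers in the members' differences was not tested. With 1 residual degree of freedom, the errors of this comparison rest mainly on the trend over all genes.

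Outside the Klrk1 gate, the same comparison over the 3 runs called 3.33% of 12299 genes higher and 5.07% lower in Trdc cells. Ccl5 was lower by -3.48 ± 0.28, Ifng by -2.81 ± 0.27 and Ccl3 by -2.51 ± 0.30, with adjusted p-values of 0.0056, 0.0069 and 0.011 in edgeR. For Xcl1 the difference was the widest and did not pass, at -4.84 ± 1.08 (adjusted p = 0.051 in edgeR). In run 1, Xcl1 was level between the gates in CPM, with 39 of the 91 UMIs of the Trdc cells in a single cell. Without run 1, the Xcl1 difference was -5.86 (adjusted p = 1.8e-15 in edgeR). Ccl4 did not pass either, at -0.43 ± 0.37 (adjusted p = 0.47). Without run 3, Ccl3 (adjusted p = 0.51) and Ifng (adjusted p = 0.20) no longer passed in edgeR, and 11 genes were called in all against 1034. Ccl3 also did not pass without run 2 (adjusted p = 0.19 in edgeR), and in run 3 its level in Trac cells rested on the 1 cell with 98 UMIs.

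**Figure D3:**
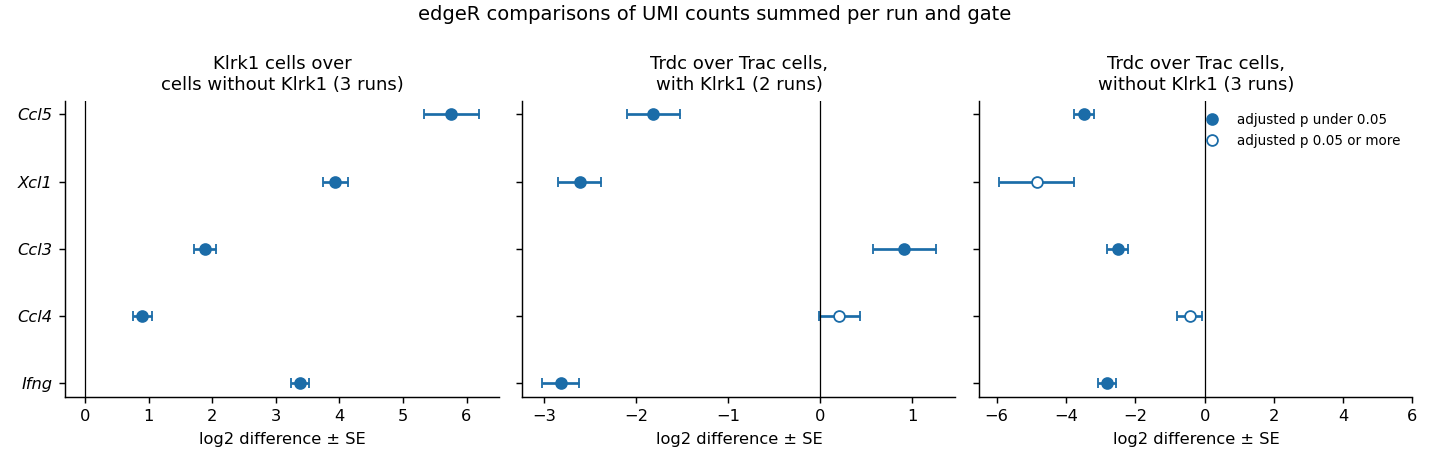
Log2 difference with its SE, derived from the F statistic of the test, for each gene in the 3 edgeR comparisons. Filled points passed an adjusted p of 0.05. All 5 genes lay right of 0 in the Klrk1 gate, from 0.90 for Ccl4 to 5.76 for Ccl5. Ccl5, Xcl1 and Ifng lay left of 0 in both comparisons of Trdc with Trac cells, and Xcl1 outside the Klrk1 gate was an open point.

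Markers of NK cells moved with the members. In the Klrk1 gate all 8 genes of the NK or ILC1 list were counted in runs 2 and 3 and 7 of 8 in run 1 (Itga2 at 0), and the list summed to between 818 and 1333 CPM over the 3 runs, against 7.26 to 113 CPM in other cells. Klrb1c, which encodes the NK1.1 antigen that the sorts left out, was at 263 CPM and 215 CPM in runs 2 and 3. Ncr1 and Eomes, which mark NK cells more narrowly, were carried by 7, 23 and 80 Klrk1 cells in runs 1, 2 and 3. These genes were chosen for a split after their values had been seen.

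Klrk1 cells with Ncr1 or Eomes had more of every member than the other Klrk1 cells in runs 2 and 3. Ccl5 was at 5078 CPM in run 2 and 4909 CPM in run 3, against 1059 and 600 CPM in the remaining Klrk1 cells. Ccl3 was at 235 and 285 CPM against 8.17 and 10.7 CPM, and Ccl4 at 184 and 365 CPM against 32.7 and 44.4 CPM. Xcl1 was at 1071 and 1092 CPM against 328 and 326 CPM, while Ifng, at 163 and 274 CPM against 94.1 and 165 CPM, differed the least. In run 2 the intervals of Ifng in the 2 classes overlapped. Ccl3 was the most uneven of the 5 across this split. The share of all genes that were higher in these cells was not computed, so the rise of every member is not read as particular to them.

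Leaving these cells out changed the comparison of receptor gates. The log2 difference of the Klrk1 gate was then 4.45 for Ccl5, 3.68 for Xcl1, 3.32 for Ifng, 0.71 for Ccl3 and 0.50 for Ccl4, with the largest of the 5 adjusted p-values at 0.0029 in edgeR, and run 1 then had 13 Klrk1 cells. In run 3, 24 of the 121 Trdc cells with Klrk1 carried Ncr1 or Eomes, and 0 of 154 did in run 2. Without them the Trdc cells of run 3 had 126 CPM of Ccl5 instead of 819, 34.4 CPM of Xcl1 instead of 168, and 6.51 CPM of Ccl3 instead of 57.2, and run 2 had 162, 33.5 and 4.93 CPM. The 6.51 CPM of Ccl3 came from 7 UMIs of 1 cell. Ccl3 turned from higher to lower in Trdc cells (-1.20, adjusted p = 0.022 in edgeR), and Ccl4 was called lower (-0.91, adjusted p = 0.00081 in edgeR). Ccl5, Xcl1 and Ifng were then lower by 3.16, 3.97 and 3.65 on the log2 scale.

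Ccl3 and Ccl4 were also high in cells with neither Klrk1 nor Trac that carried genes of early progenitors, another split that was chosen after the values had been seen. Mpo encodes the myeloperoxidase of myeloid progenitors and granulocytes, and Cd34 marks early progenitors. Cells with an Mpo UMI numbered 142 in run 2 and 196 in run 3. They had 27.2 and 78.0 CPM of Ccl3, against 1.53 and 5.58 CPM in cells without Mpo, and 63.5 and 139 CPM of Ccl4, against 29.3 and 21.5 CPM. After thinning, Ccl4 was found in 9.86% and 17.9% of the cells with Mpo and in 4.64% and 4.02% of those without. With Cd34, Ccl3 was at 10.6 and 83.7 CPM and Ccl4 at 45.9 and 125 CPM.

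Xcl1 and Ifng did not share this pattern. Xcl1 was at 4.54 and 3.9 CPM in cells with Mpo, and Ifng at 0.756 and 3.9 CPM, no higher than the 7.44 and 9.98 CPM of Ifng in cells without Mpo. Ccl5 did share it, at 72.6 and 63.1 CPM with Mpo against 25.4 and 12.5 CPM without. Among cells of run 3 with neither Klrk1 nor Trac, those with a Ccl3 UMI had 449 CPM of Lyz2 (lysozyme of myeloid cells) and 614 CPM of Tyrobp (a signaling adaptor of NK and myeloid cells), against 19.4 and 36.6 CPM in those without. In run 2 Lyz2 was at 44.7 against 33.8 CPM and Tyrobp at 195 against 33.5 CPM. The part of such cells in the levels of Ccl3 and Ccl4 in the gates was not tested.

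**Figure D4:**
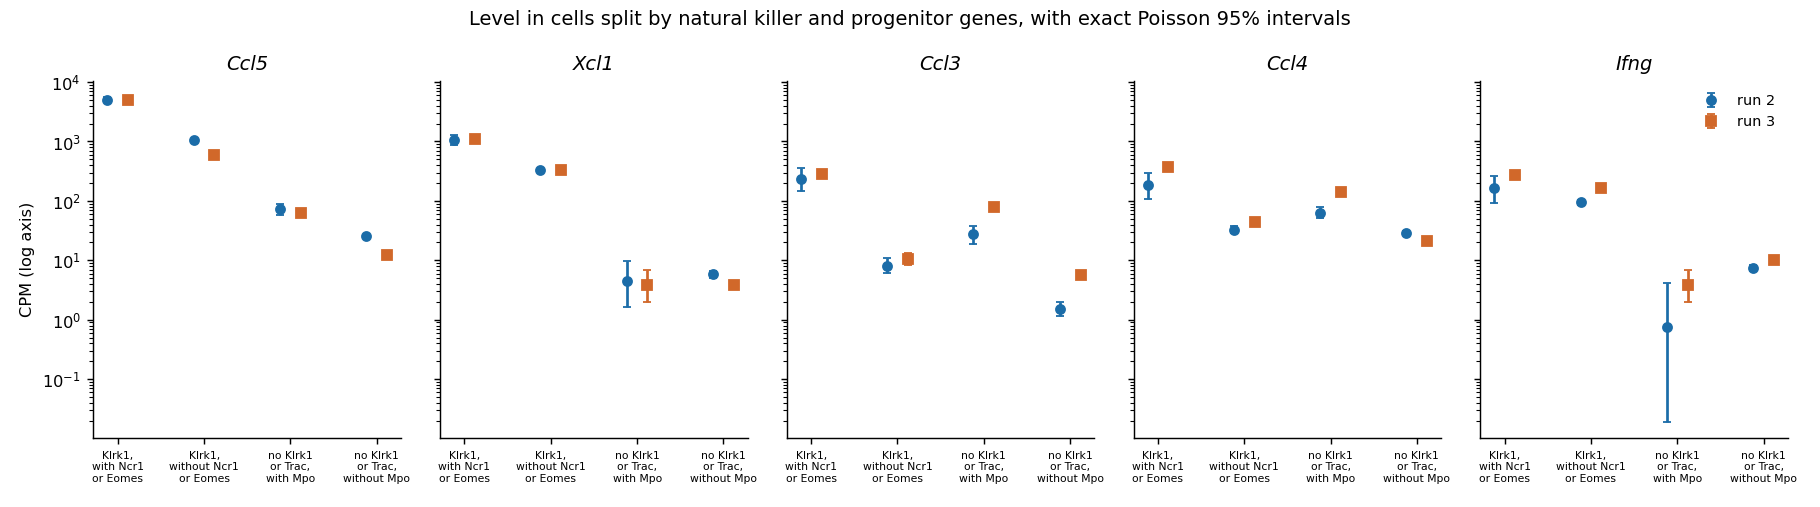
Level of each gene in CPM (log axis) in runs 2 and 3, in Klrk1 cells with and without a UMI of Ncr1 or Eomes and in cells with neither Klrk1 nor Trac, with and without a UMI of Mpo, with exact Poisson 95% intervals. All genes were higher in the first class than in the second, with overlapping intervals for Ifng in run 2. Ccl3, Ccl4 and Ccl5 were also higher in the third class than in the fourth, whereas Xcl1 and Ifng were high in the 2 Klrk1 classes alone.

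Genes of effector state were used to split the Trac cells with Klrk1. With a UMI of Gzmb, which encodes granzyme B, Ccl5 was at 1597 and 948 CPM in runs 2 and 3 and without it at 1613 and 559 CPM. Ifng was at 143 and 245 CPM with Gzmb and at 119 CPM in both runs without it. In run 3, all 5 members were higher in cells with Gzmb, with Ccl3 at 19.8 against 1.57 CPM and Ccl4 at 59.3 against 12.6 CPM, and the intervals of no member overlapped. In run 2, Xcl1 was at 507 against 449 CPM and Ccl4 at 37.8 against 26.1 CPM, and the intervals of all 5 members overlapped. This split was computed for the members alone. With no share over all genes to set beside them, these counts are not read as a trait of the members.

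Cells with Cxcr3, a chemokine receptor of type 1 lymphocytes, had more Xcl1 in both runs, 547 against 450.3 CPM and 469 against 391 CPM. Ifng did not follow Cxcr3, at 145 against 129 CPM in run 2 and 186 against 233 CPM in run 3. Cells with Ifit3, a gene induced by interferons, had more Ifng in both runs, 204 against 128 CPM and 277 against 184 CPM, and more Xcl1, 659 against 471 CPM and 493 against 423 CPM. Ccl5 went down with Ifit3 in run 2 (1083 against 1654 CPM) and up in run 3 (1088 against 749 CPM).

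Within all Trdc cells, those with Il2rb, which encodes an IL-2 and IL-15 receptor chain of NK-like cells, had higher levels of Ccl5 and Xcl1 in each run. Ccl5 was at 232, 184 and 405 CPM in the 47, 160 and 304 cells with Il2rb of the 3 runs, and at 2.61, 19.3 and 9.01 CPM in the remaining Trdc cells. Xcl1 was at 95.5, 39.6 and 73.5 CPM against 2.84, 4.31 and 2.70 CPM. In run 2, however, the Trdc cells with Il2rb held 204 UMIs of Ccl5 and 44 of Xcl1, and the more numerous cells without it held 600 and 134. Trdc cells with Klrk1, also those with Ncr1 or Eomes, were part of these sets. In run 3, Trdc cells with Klrk1 held 1031 UMIs of Ccl5 and 211 of Xcl1, against 624 and 137 in Trdc cells without Klrk1. Their part in the difference by Il2rb was not tested. In cells with Il17re, which encodes a receptor chain for IL-17C and marks IL-17-type γδ cells, Ccl5 was at 21.7 and 5.66 CPM in runs 2 and 3 and Xcl1 at 1.73 and 2.36 CPM. Ccl4, however, was at 138 CPM in the 196 cells with Il17re of run 2 and at 34.9 CPM in those of run 3, against 26.0 and 22.7 CPM without it. A single cell held 96 of the 159 Ccl4 UMIs of these cells in run 2.

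In single Klrk1 cells thinned to equal depth, the members overlapped partly. No member was found in 33.2% of the cells in run 2 and 35.6% in run 3, exactly 1 in 38.8% and 33.9%, 2 in 21.8% and 21.1%, and 3 in 5.90% and 7.38%. Of the cells with Ccl3, 44.4% (21.5 to 69.2, n = 18) and 47.8% (26.8 to 69.4, n = 23) also had Ccl4, against 3.78% and 4.61% of the cells without Ccl3. Outside the Klrk1 gate these values were 31.0% and 55.1% against 4.11% and 3.80%. Ccl4 was thus more frequent in cells with its neighbour Ccl3 than in cells without it, in both gates and both runs.

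Ccl5 and Ifng were also found together. In the Klrk1 gate, Ifng was in 24.7% and 34.5% of the cells with Ccl5, against 14.6% and 19.2% of those without. Xcl1 was in 58.8% and 53.4% of the cells with Ifng, against 43.7% and 41.3% of those without. Outside the gate, Xcl1 was in 41.4% and 30.1% of the cells with Ifng, against 5.69% and 2.85%. Ccl4 and Xcl1 showed no such excess outside the gate, where Xcl1 was in 5.18% and 2.20% of the cells with Ccl4 and in 6.74% and 3.65% of those without.

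Over the 20 run-by-gate classes with at least 20 cells, Ccl5, Xcl1 and Ifng had similar profiles. Pearson's r of log2(CPM + 1) was 0.94 for Ccl5 with Xcl1, 0.93 for Ccl5 with Ifng and 0.91 for Xcl1 with Ifng, and 0.91 for Ccl3 with Ccl4. Ccl3 and Ccl4 with the other 3 gave 0.72 to 0.85. Among 9629 genes, the closest to Ccl5 was Klrc2 (0.96), to Xcl1 Klre1 (0.97), to Ifng Ctsw (0.98), to Ccl3 1700026L06Rik (0.92) and then Plek (0.91), and to Ccl4 Runx2 (0.91). Klrc2 and Klre1 encode NK receptors and Ctsw encodes cathepsin W of cytotoxic cells. Classes of 1 run share a library and a depth, so these values describe the classes and carry no p.

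The genes that act with the members were taken as lists. For the counts here and below, edgeR called 18.3% of all genes tested higher and 22.1% lower in the Klrk1 gate. In Trdc against Trac cells, 18.2% were higher and 16.9% lower with Klrk1, and 3.33% and 5.07% without it. Of 12 genes known to induce or accompany Ifng expression, 11 were higher in the Klrk1 gate and 1 lower by the edgeR test, and the list median was a log2 difference of 2.41. The highest was Hopx, at 4.28, followed by Tbx21, at 3.85, which encodes T-bet, the regulator of Ifng in type 1 lymphocytes. The smallest rise was that of the IL-12 receptor gene Il12rb1, at 0.69, and Zeb2 fell by 1.16. In Trdc cells with Klrk1, 7 of the 11 tested were lower and 1, Zeb2, was higher (2.93), with Tbx21 at -3.60 and Hopx also at -3.60. Outside the Klrk1 gate 7 of 11 were again lower, with Tbx21 at -5.54, and Zeb2 was higher at 2.44.

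The IFNγ receptor chains were taken from a list of receptors for the members. Ifngr2 was lower in the Klrk1 gate by the edgeR test, at -0.97, and Ifngr1 did not pass, at 0.03. In Trdc cells with Klrk1, Ifngr2 was higher at 2.1 and Ifngr1 did not pass, at 0.10. Outside the gate neither passed, with Ifngr1 at 0.51 and Ifngr2 at -0.01. The gene of the XCL1 receptor, Xcr1, was below the filter on low counts and was not tested.

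Of 20 genes for other secreted factors, 18 were tested in the Klrk1 gate and 11 were higher, none lower. The extremes were the chemokine gene Ccl1, at 7.63, and Tnf, at 0.84, and Fasl, the death ligand of cytotoxic cells, rose by 3.54. In Trdc cells with Klrk1, 4 of 9 were lower, from Cxcl10 at -4.31 to Ltb at -1.66. Outside the gate 7 of 17 were lower, from Il22 at -6.91 to Cxcl10 at -2.98. Thus, Fasl, the interferon-induced chemokine gene Cxcl10 and the cytokine gene Il4 took the same directions as Ccl5 and Ifng. Il4 was called at 1.93 in the Klrk1 gate, at -3.07 in Trdc cells with Klrk1 and at -5.29 outside the gate. Ltb did not pass outside the gate (-1.87).

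Of 14 immediate-early and receptor-signal genes, 6 were higher in the Klrk1 gate, from Egr2 at 0.91 to Dusp1 at 1.88, and the list median was 0.45. Nr4a1, which reports antigen-receptor signaling, was at -0.09 and did not pass. In Trdc cells with Klrk1, 5 of 12 were lower, Dusp1 the most at -1.99, and Fosb was higher at 0.89. Outside the gate 2 of 14, Egr3 at -2.99 and Egr1 at -0.81, were lower, against 5.07% of all genes tested.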

How the data were processed

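The authors ran Cell Ranger against mm10 on each 10x library, and the deposited values are raw UMI counts for every gene in the called cells, without normalization. The file header gives version 4.0.0 for run 3, and the version used for each of the other runs is not given in the sources used here. The deposited counts summed to 39947415, 52797915 and 98533329 UMIs in 5527, 8887 and 8869 cells, and the precision of each value is given by its exact 95% interval, which covers counting error only.

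Cells were filtered and gated as described, and levels are CPM of counts summed over the cells of a gate. Cells are not replicates, so counts were summed per run and gate and tested with edgeR 4.0.16 and limma 3.58.1 in R 4.3.3 (TMM, filterByExpr, quasi-likelihood F test, two-sided, Benjamini-Hochberg over all genes tested, threshold 0.05). Comparisons of Trdc with Trac used runs with at least 20 cells in both gates. In the Klrk1 comparison, run 1 entered with 20 Klrk1 cells, and with 7, 15 and 13 in the alternatives with gates at 2 UMIs, without the highest Scrublet scores and without Ncr1 or Eomes. Gate genes were not tested in their own contrasts. The run was the block, since a run's gates share their thymi and library, and the deviations of paired gates from their group means correlated at 0.386 to 0.782. Residual degrees of freedom were 2, 1 and 2. The SE of an edgeR log2 difference is its absolute value divided by the square root of the F statistic. It restates the test and is not a spread measured over runs. The runs are separate pools, sorted differently. With the run as a block, p-values measure how the difference between gates varies over 3 pools, or over 2 among Klrk1 cells. The errors also borrow from all genes, with prior degrees of freedom of 43.33, 81.58 and 3.87. In the first 2 comparisons they rest mainly on this shared part, so small p-values do not show that a result repeats between replicate sorts. The script was tested on simulated data.

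Alternatives were DESeq2 1.42.0, upper-quartile normalization, no filter on low counts, gates at 2 UMIs, a mitochondrial limit of 5%, removal of the highest Scrublet scores (scanpy 1.11.5; 700, 750 and 750 cells), no block, and each run left out. Others, without Klrk1 cells that carried Ncr1 or Eomes and with only the cells that had a Trac UMI, were chosen after seeing the data, as were the splits by Ncr1, Eomes, Mpo and Cd34. The members, the gene lists and the rule for named genes (all members, the extremes of each list, and the most similar profiles among genes with at least 10 CPM in 1 class) were chosen with earlier results of these data known. Positions came from GENCODE vM21 and promoters from RefSeq. Whether reads that fall in an overlap were counted for the member or for the gene that overlaps it was not checked. The use of strand is not given in the sources used here. A gene of the receptor list is not reported here.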

Additional observations from a re-analysis of the deposited data

Results flagged for a closer look

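Ccl3 and Ccl4 differed in direction between runs, which was not tested because each run is 1 library. In Klrk1 cells, the log2 ratio of Trdc to Trac cells for Ccl3 was -1.27 in run 2 and 2.04 in run 3, and for Ccl4 -0.78 in run 2 and 1.04 in run 3. In cells without Klrk1, the ratio for Ccl4 was 1.20 in run 1, where the Trac cells held 1 UMI, 0.31 in run 2 and -1.16 in run 3. In Klrk1 cells of run 3 without Ncr1 or Eomes, Ccl3 was at 6.51 CPM in Trdc cells and 13.7 CPM in Trac cells, and Ccl4 at 27.9 and 44.2 CPM. Klrk1 cells with both receptor genes had 2.27 and 34.4 CPM of Ccl3 in runs 2 and 3, and 30.2 and 94.9 CPM of Ccl4.

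Cells outside the limits on genes and mitochondrial counts, which no comparison used, also held member UMIs. In run 3, 1358 such cells held 324 UMIs of Ccl5, 150 of Xcl1, 81 of Ccl3, 218 of Ccl4 and 209 of Ifng. Their levels, 16.0 CPM of Ccl5, 7.41 of Xcl1, 4.0 of Ccl3, 10.8 of Ccl4 and 10.3 of Ifng, were below those over all kept cells of run 3, 112, 55.2, 11.8, 32.8 and 29.1 CPM. In run 2, 35 such cells held 4 UMIs of Ccl5 and 12 of Ccl4, at 71.2 CPM of Ccl4 against 30.8 CPM in kept cells and 23.7 CPM of Ccl5 against 187 CPM. In run 1, 1 of 11 such cells held 14 UMIs of Ccl5, at 97.2 CPM over the 11 cells against 8.11 CPM in kept cells.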

How the results depend on the processing

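The members' log2 differences were recomputed under 150 alternatives in all, of which 115 kept direction and side of the threshold, 24 lost the call, 6 gained one and 5 reversed. The reversals were Ccl3 among Klrk1 cells without those that carried Ncr1 or Eomes (-1.20), Ccl4 there (-0.91), with DESeq2 (-0.050) and without the highest Scrublet scores (-0.023), and Ccl4 outside the Klrk1 gate, which ranged from -0.83 (without run 2) to 0.28 (without run 3). The number of genes called for the Klrk1 gate was 5082, and 2045 with DESeq2 and from 1278 (without run 3) to 5971 (without run 1) with each run left out. For Trdc against Trac among Klrk1 cells it was 3344, and 1385 with DESeq2 and 479 with gates at 2 UMIs. Outside the Klrk1 gate it was 1034, and 3672 with gates at 2 UMIs and from 11 (without run 3) to 6112 (without run 1) with each run left out. Without the block of the run, which pairs the gates of a library, edgeR called 0 genes in each comparison, with 1252, 1412 and 1278 at an unadjusted p under 0.05. Leaving out a run among Klrk1 cells was not run, since 1 run has no residual degree of freedom. The cause of these changes was not tested. Each fit with a run left out also had fewer residual degrees of freedom, and the number called fell without run 3 and rose without run 1. Of 50 recomputed shares in Trac cells with Klrk1, 42 stayed within the counting interval, and 7 of the 8 that moved were those thinned to 2000 UMIs. The number of cells limits what run 1 can show, since its 20 Klrk1 cells held 1 UMI each of Ccl3, Ccl4 and Ifng.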

Other observations

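Klrk1 cells with a UMI of neither Trac nor Trdc numbered 95 in run 2 and 108 in run 3 and entered no test between receptor gates. They had 963 and 2078 CPM of Ccl5, 60.4 and 83.4 CPM of Ccl3 and 101 and 130 CPM of Ccl4. Those without Ncr1 or Eomes had 732 and 607 CPM of Ccl5, 31.7 and 15.3 CPM of Ccl3 and 79.3 and 34.5 CPM of Ccl4. In run 3, the 32 with Ncr1 or Eomes had 6834 CPM of Ccl5, the highest level of a member in any class of at least 20 cells.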
